A study of Rattus norvegicus with 47 samples.

Results

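Fibrinogen, the clotting protein of blood plasma, and a group of acute phase proteins were followed through liver lesions of rats. The 9 genes were Fga, Fgb and Fgg (the alpha, beta and gamma chains of fibrinogen), Crp, Lbp, Hp, Orm1, A2m and Mug1. They were taken by symbol from the array annotation, out of 14217 genes with a probe set of their own. Together they had 13 of the 31042 probe sets of the array, and 12 of these carried a single gene symbol. Fgb had 3 probe sets, Fga had 2, and Mug1 had 1 of its own and 1 shared with Cpamd8 and Mug1l1. Unless another is named, values are of 1370992_a_at (Fga), 1370511_at (Fgb), 1370086_at (Fgg), 1387830_at (Crp), 1387868_at (Lbp), 1370148_at (Hp), 1368731_at (Orm1), 1367794_at (A2m) and 1388229_a_at (Mug1).

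Acute phase proteins are made by hepatocytes and secreted into plasma, and their output is reset by inflammation through interleukin 6 and interleukin 1. The 3 fibrinogen chains are assembled in the hepatocyte into one protein, and their messenger RNAs are known to be made in step. Hp (haptoglobin, which binds free haemoglobin), Orm1 (orosomucoid, a plasma carrier of small molecules), Lbp (which hands bacterial lipopolysaccharide to its receptor) and A2m (a broad protease inhibitor that is a strong acute phase protein of the rat) are raised by inflammation. Crp (C-reactive protein, which binds damaged cells and bacteria) is made by rat liver also without inflammation. Mug1 (murinoglobulin, a rodent relative of A2m) is known in the rat as a protein that goes down in the acute phase.

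The lesions came from 7 male Wistar rats, each given 1 dose of N-nitrosomorpholine (250 mg/kg), a liver carcinogen, at 4 weeks of age. After 3 weeks of recovery they drank phenobarbital (50 mg/kg per day), a promoter of liver tumours, for up to 17 months. Every group below shares both treatments, the surrounding liver included, so no untreated liver is compared. Frozen tissue gave 5 nodules from 3 animals, 6 adenomas from 2, 4 carcinomas from 3, 4 carcinomas labelled with a beta-catenin mutation from 3 (called beta-catenin carcinomas here) and 7 samples of surrounding liver from 5. Formalin-fixed, paraffin-embedded (FFPE) tissue taken by laser microdissection gave 9 foci from 3 animals, 5 adenomas from 3 and 4 samples of surrounding liver from 4. Several lesions came from the same animal, so the number of lesions exceeds the number of animals in each lesion group. The labels give each lesion a control set, the surrounding liver sample it belongs to, and lesion groups were compared with surrounding liver in a fit with the control set as a term. In tissue samples, fewer cells of a type and less RNA per cell cannot be told apart.

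The windows around the starts of the fibrinogen genes are shown because these genes moved together in the lesions described below. They are neighbours on chromosome 2 in the order Fgg, Fga, Fgb, with Lrat on the other side of Fgg. Each window runs from 250 bases before to 50 bases after the start in the RefSeq table (build GRCr8), 5′ to 3′ on the strand of the gene. The table held 6 of the 9 genes, and for Fga it lists 2 starts, of which 1 is shown. Capitals mark matches on either strand to CTGGGAA (a motif known from interleukin 6 responsive liver genes), TTCNNNGAA (the STAT motif) or GTTAAT (a partial site of the liver factor HNF1, here on the minus strand as ATTAAC).
Fgg, chr2:170652833-170653132, plus strand: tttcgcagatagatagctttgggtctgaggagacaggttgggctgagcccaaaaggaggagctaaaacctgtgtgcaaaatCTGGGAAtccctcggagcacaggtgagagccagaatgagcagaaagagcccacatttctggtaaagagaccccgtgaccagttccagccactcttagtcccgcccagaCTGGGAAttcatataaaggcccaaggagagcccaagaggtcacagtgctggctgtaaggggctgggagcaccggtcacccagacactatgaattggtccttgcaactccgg
Fga, chr2:170671919-170672218, plus strand: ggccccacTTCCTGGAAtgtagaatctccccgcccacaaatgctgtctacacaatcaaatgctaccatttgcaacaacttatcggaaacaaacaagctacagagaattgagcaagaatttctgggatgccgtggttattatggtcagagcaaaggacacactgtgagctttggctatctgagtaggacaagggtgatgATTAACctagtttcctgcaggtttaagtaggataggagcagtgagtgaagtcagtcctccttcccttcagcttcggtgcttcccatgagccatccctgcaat
Fgb, chr2:170700826-170701125, minus strand: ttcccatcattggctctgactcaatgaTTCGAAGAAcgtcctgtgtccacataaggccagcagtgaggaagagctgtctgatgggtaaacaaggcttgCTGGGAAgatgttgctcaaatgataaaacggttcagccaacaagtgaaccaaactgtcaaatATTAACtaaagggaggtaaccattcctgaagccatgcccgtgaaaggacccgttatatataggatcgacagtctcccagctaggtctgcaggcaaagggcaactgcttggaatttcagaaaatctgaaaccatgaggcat

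Fgg held CTGGGAA at 169 and 61 bases before its start and neither of the other motifs. Fgb held 1 copy of each motif, CTGGGAA at 152, TTCNNNGAA at 223 and GTTAAT at 90 bases before the start. Fga held TTCNNNGAA at 242 and GTTAAT at 52 bases before the start. No matches overlapped. Of 27457 rat promoter windows of the same 300 bases, 10.9% held CTGGGAA, 8.68% TTCNNNGAA and 7.37% GTTAAT. A match describes the letters and is no evidence of binding.

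Values are log2 probe set summaries as deposited. The median of an array lay between 5.49 and 5.59 in frozen and between 5.58 and 5.68 in FFPE tissue, and the brightest probe set between 14.95 and 15.13 in frozen and between 14.40 and 14.58 in FFPE tissue. Hp and the fibrinogen chains thus lay near the top of the scale. So did Crp in FFPE tissue (13.61 to 14.14) and Orm1 in surrounding liver (up to 13.53 in frozen and 13.43 in FFPE tissue). A loss of contrast there was not tested. Arrays give no counts of molecules, so their number limits the precision. The median difference over all 14217 genes lay between -0.09 and 0.03 in the 11 comparisons made.

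Surrounding liver itself differed in 3 of the 9 genes, Mug1, Lbp and Crp, according to which control set it belonged to. The 3 surrounding arrays that belong to carcinomas were set against those of the 4 other frozen sets. Mug1 stood at 11.17, 11.08 and 11.36 in the sets of the carcinomas, against 8.40, 8.26, 8.67 and 8.96 in the other sets. Lbp stood at 10.82, 10.46 and 10.53 in the sets of the carcinomas, against 8.38, 7.75, 8.18 and 8.35 in the other sets. Every array of the carcinoma sets lay above every array of the other sets in both genes. The probe set that Mug1 shares with Cpamd8 and Mug1l1 did not split this way. It lay at 13.81 to 14.10 in the sets of the carcinomas and at 13.82 to 14.21 in those of the nodules.

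Mug1 was higher by 2.63 ± 0.16 (standard error, 6.2-fold, adjusted p = 0.000101), and Lbp by 2.44 ± 0.16 (5.41-fold, adjusted p = 0.000139), in limma's moderated test with Benjamini-Hochberg adjustment over 14217 genes. Crp had 13.27, 13.08 and 13.16 in the sets of the carcinomas, against 12.08, 11.83, 11.59 and 11.76 in the other sets. Its groups did not overlap, and it was higher by 1.36 ± 0.12 (2.56-fold, adjusted p = 0.000515). These were 3 of 9 genes higher, where 3.07% of all genes were. That surrounding arrays differ in some of these genes was known from earlier results of these data. The p-values of this comparison are therefore no independent test. The fibrinogen chains, Hp and Orm1 differed by -0.07 to 0.14 between the kinds of set, and A2m by -0.77 ± 0.48 (adjusted p = 0.361). With animal as replicate block A2m passed at -0.56 ± 0.13 (adjusted p = 0.0462). The labels give no batch for these sets. Mug1, Lbp and Crp also had higher means in FFPE than in frozen surrounding liver. They were 12.8 against 9.70 for Mug1, 11.37 against 9.21 for Lbp and 13.90 against 12.40 for Crp. A2m was higher there too (7.52 against 6.99), and the means of the remaining genes were lower. Any part of tissue processing in the difference between the kinds of set was not tested. Animals 10 and 23 had a set of each kind, and within them Lbp was 10.82 against 8.38 and 10.53 against 8.35. Crp was 13.27 against 12.08 and 13.16 against 11.76 in these animals, and Mug1 11.17 against 8.40 and 11.36 against 8.96. Of the markers of cell types, Tat (1.45) of 8 hepatocyte genes and C1qb (0.79) of 7 macrophage genes were also higher in the carcinoma sets, and Cd163 was lower (-0.63). Only 2 of the 8 hepatocyte genes lay above 0, with a median of -0.05. Of the 7 macrophage genes 6 did, with a median of 0.31. The part of these cell types in this result was not tested.

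**Figure D1:**
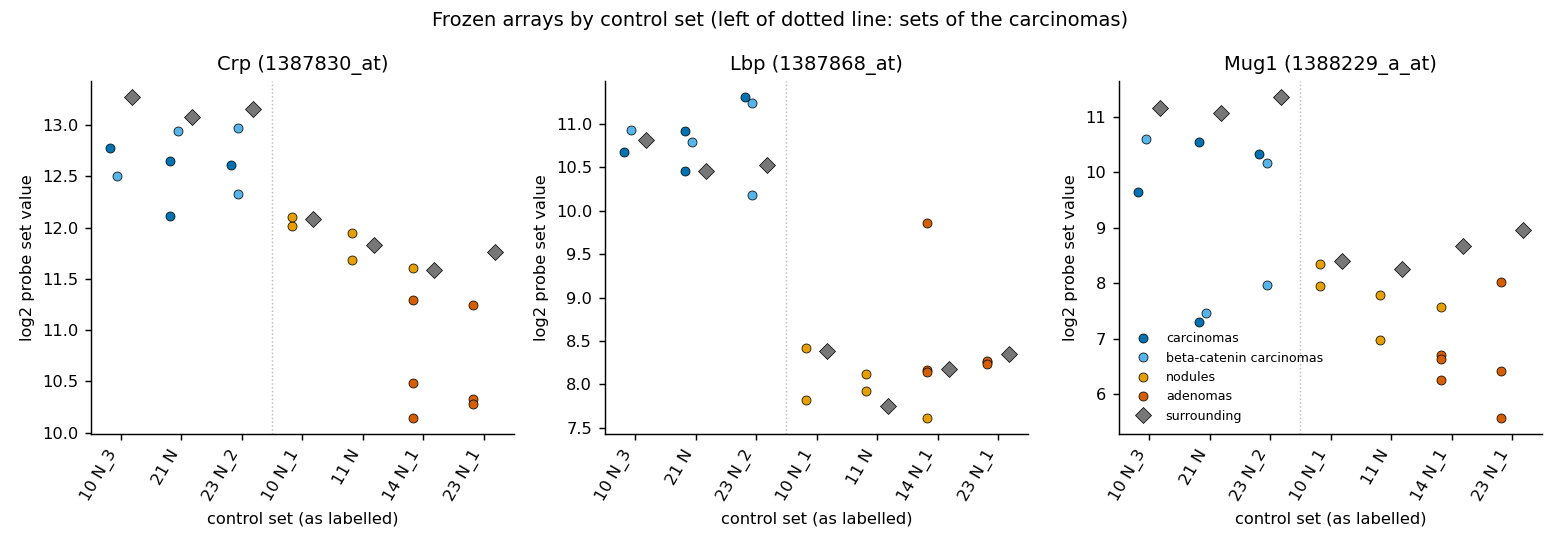
Log2 probe set values of Crp, Lbp and Mug1 on every frozen array (vertical axes) by labelled control set (horizontal axes), with the sets of the carcinomas left of the dotted line. Circles are lesions and diamonds surrounding liver, and the surrounding values of Lbp are 10.46 to 10.82 in the sets of the carcinomas and 7.75 to 8.38 in the other sets.

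All 3 fibrinogen genes fell in the beta-catenin carcinomas, and Fga and Fgb also fell in the other carcinomas. Fgb had 13.56, 11.80, 11.83 and 12.49 in the beta-catenin carcinomas, against 13.96, 13.74 and 13.73 in the surrounding liver of their control sets. Every one of these lesions lay below every surrounding array, and replicate 1 lay closest. Fgb, which limits fibrinogen assembly in cultured human liver cells, fell by 1.35 ± 0.23 (2.55-fold, limma, adjusted p = 0.00168). Fgg, the chain that carries the sites for fibrin cross-linking and platelet binding, had 13.64, 12.42, 12.30 and 12.90, against 14.00, 13.83 and 13.71 in surrounding liver. It fell by 1.0 ± 0.18 (1.99-fold, adjusted p = 0.00264). Fga, whose protein thrombin cuts to start clotting, had 13.58, 12.21, 12.07 and 12.77, against 13.83, 13.88 and 13.75 in surrounding liver, and fell by 1.13 ± 0.23 (2.19-fold, adjusted p = 0.00444). The groups did not overlap for Fga or Fgg either. With Hp, 4 of the 9 genes fell in this comparison, where 5.07% of all genes fell.

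The source name of beta-catenin carcinoma replicate 1 names no mutation, and that array had the highest chains of its group. Without it Fgb stood at -1.73 ± 0.19 (adjusted p = 0.000123), Fga at -1.46 ± 0.20 (adjusted p = 0.000445) and Fgg at -1.27 ± 0.16 (adjusted p = 0.000278). In a fit of carcinoma control sets alone, the sizes were as before and Fgb passed (adjusted p = 0.0407), while Fga (adjusted p = 0.0576), Fgg (0.0505) and Hp (0.113) missed the threshold. Fga also missed it without surrounding replicate 7 (-1.07, adjusted p = 0.0557).

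Carcinomas without that label had Fgb at 12.99, 13.01, 12.27 and 12.92, against the same surrounding arrays at 13.96, 13.74 and 13.73. Replicate 3 was the lowest and the groups did not overlap. Fgb fell by 0.94 ± 0.23 (1.92-fold, limma, adjusted p = 0.0233). Fga had 13.11, 13.25, 12.49 and 13.09 in these carcinomas, against 13.83, 13.88 and 13.75 in surrounding liver, again with no overlap. It fell by 0.79 ± 0.23 (1.73-fold, adjusted p = 0.045). Fgg had 13.28, 13.39, 12.75 and 13.29 in carcinomas, against 14.00, 13.83 and 13.71 in surrounding liver. Its groups did not overlap either, but its difference of -0.62 ± 0.18 missed the threshold (adjusted p = 0.0522) and passed without beta-catenin carcinoma replicate 1 (-0.64, adjusted p = 0.0122). These were 2 of 9 genes lower, where 3.5% of all genes were. Both calls were lost in the fit of carcinoma control sets alone (Fgb adjusted p = 0.133, Fga 0.175) and without carcinoma replicate 1 (0.134 and 0.197), carcinoma replicate 3 (0.0653 and 0.119), surrounding replicate 5 (0.208 and 0.323) or surrounding replicate 7 (0.119 and 0.181). Fga lost its call without any 1 of 15 of the 26 arrays.

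**Figure D2:**
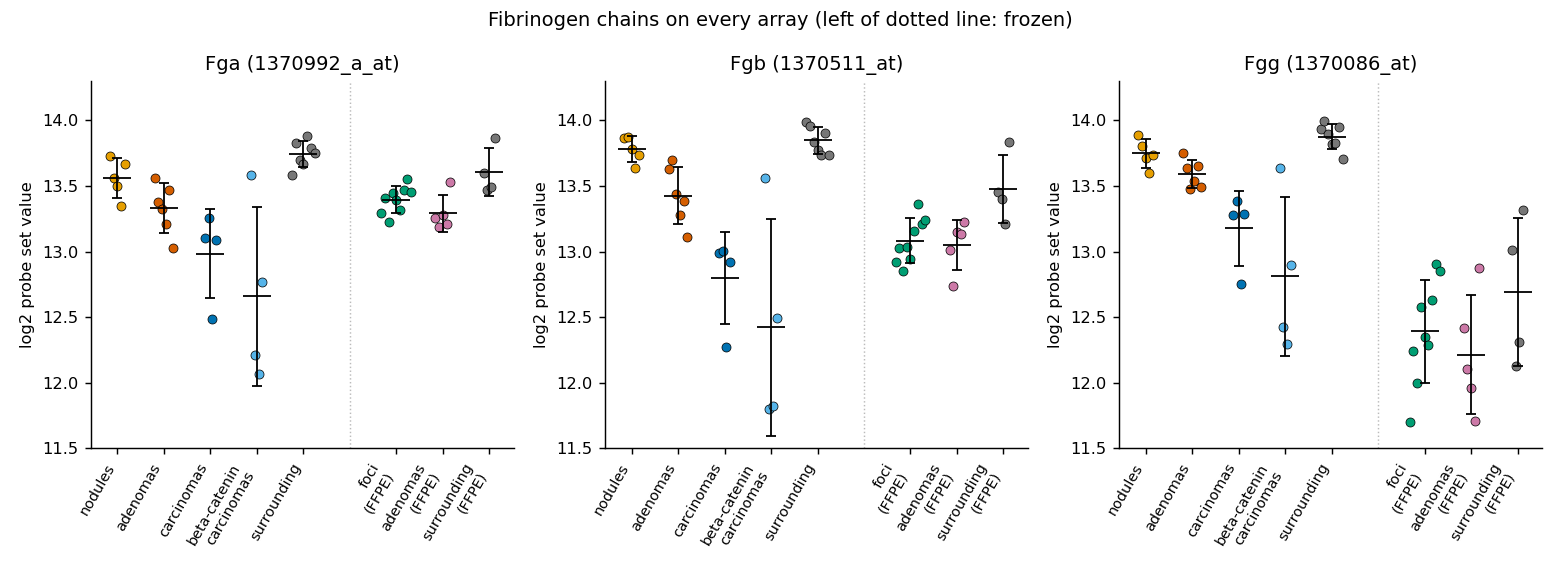
Log2 probe set values of the fibrinogen chains Fga, Fgb and Fgg on every array (vertical axes) by lesion group (horizontal axes), frozen tissue left of the dotted line and FFPE tissue right of it. Bars are the mean and the standard deviation, and Fgb spans 11.80 to 13.56 in beta-catenin carcinomas and 12.27 to 13.01 in carcinomas, against 13.73 to 13.99 in frozen surrounding liver.

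In nodules and in frozen adenomas no chain passed on its probe set of highest mean. The fitted differences of the adenomas lay between those of the nodules and the carcinomas. The other probe set of Fga passed in frozen adenomas and is given below. Nodules had Fgb at 13.87, 13.87, 13.78, 13.64 and 13.74, against 13.99, 13.84 and 13.78 in the surrounding liver of their sets, with overlap. The differences of Fgb, Fgg and Fga were -0.15, -0.16 and -0.11, with 95% intervals of -0.61 to 0.31, -0.53 to 0.20 and -0.56 to 0.34. In limma 0 of 9 genes passed in nodules, 0 of them at an unadjusted p under 0.05, and 0% of all genes fell (1200 genes had an unadjusted p under 0.05 in either direction). Adenomas had Fgb from 13.11 to 13.69 with a median of 13.41, against 13.78 and 13.90 in the 2 surrounding arrays of their sets, with no overlap. Fgb, Fga and Fgg stood at -0.40 ± 0.23, -0.40 ± 0.22 and -0.30 ± 0.18, and none passed in adenomas (adjusted p = 0.256, 0.24 and 0.284). In the fit of nodules, adenomas and their own sets alone, Fgb passed at the same size with a smaller error (± 0.11, adjusted p = 0.0371).

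In the microdissected FFPE tissue Fgb and Fgg fell in foci and Fgb fell in adenomas. Frozen and FFPE arrays were fitted apart, and no difference between them was tested. Foci had Fgb from 12.85 to 13.37 with a median of 13.03, against 13.46, 13.21 and 13.83 in the surrounding liver of their 3 sets. The ranges overlapped, yet each of the 9 foci lay below its own surrounding array. Fgb fell by 0.38 ± 0.09 in foci (1.3-fold, limma, adjusted p = 0.011). Fgg ranged from 11.70 to 12.90 with a median of 12.35 in foci, against 13.01, 12.31 and 13.32 in surrounding liver, and 7 of 9 foci lay below their own array. It fell by 0.48 ± 0.14 (1.39-fold, adjusted p = 0.0498), a call at the edge of the threshold. Fga stood at -0.24 ± 0.07 in foci and missed it (adjusted p = 0.0673). These were 2 of 9 genes lower in foci, where 1.36% of all genes were. Fgb lost its call without surrounding replicate 1 (adjusted p = 0.102) or 4 (0.135), and Fgg lost it without any 1 of 13 of the 18 arrays (adjusted p up to 0.397).

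FFPE adenomas had Fgb at 13.01, 12.74, 13.15, 13.14 and 13.22, against 13.46, 13.40 and 13.83 in the surrounding liver of their sets. The groups did not overlap, and Fgb fell by 0.42 ± 0.10 (1.34-fold, limma, adjusted p = 0.0146). It was the 1 gene of the 9 that fell, where 0.872% of all genes did. Fga stood at -0.29 ± 0.08 (adjusted p = 0.0644) and Fgg at -0.34 ± 0.15 (adjusted p = 0.345). FFPE adenoma replicate 4 carries a source name of surrounding tissue, and without that array Fgb stood at -0.44 ± 0.10 (adjusted p = 0.0309). Fgb lost its call without surrounding replicate 1 (adjusted p = 0.11) or 4 (0.0908) or without adenoma replicate 2 (0.0635) or 5 (0.0631).

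The other probe set of Fga, 1371258_at, fell in both carcinoma groups, in frozen adenomas and in foci. It had 9.65, 8.61, 8.70 and 9.49 in beta-catenin carcinomas and 9.36, 9.29, 9.19 and 9.0 in carcinomas, against 10.51, 10.67 and 10.47 in surrounding liver. No array of either carcinoma group reached the surrounding liver. When every probe set was tested on its own, it fell by 1.41 ± 0.27 in beta-catenin carcinomas (2.65-fold, limma, adjusted p = 0.00367) and by 1.31 ± 0.27 in carcinomas (2.48-fold, adjusted p = 0.00976). It also fell in frozen adenomas, where it ranged from 9.16 to 10.30 with a median of 9.61, against 10.43 and 10.57 in surrounding liver (-0.84 ± 0.26, adjusted p = 0.0485). In foci it ranged from 8.27 to 9.96 with a median of 9.37, against 9.77, 9.73 and 11.02 in surrounding liver, and fell by 0.92 ± 0.23 (adjusted p = 0.027). In FFPE adenomas its difference of -0.93 ± 0.25 missed the threshold (adjusted p = 0.0636). The other probe sets of Fgb, 1371234_at and 1388266_at, lay between 2.64 and 4.82 on every array, below each array's median, and give no level of Fgb.

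**Figure D3:**
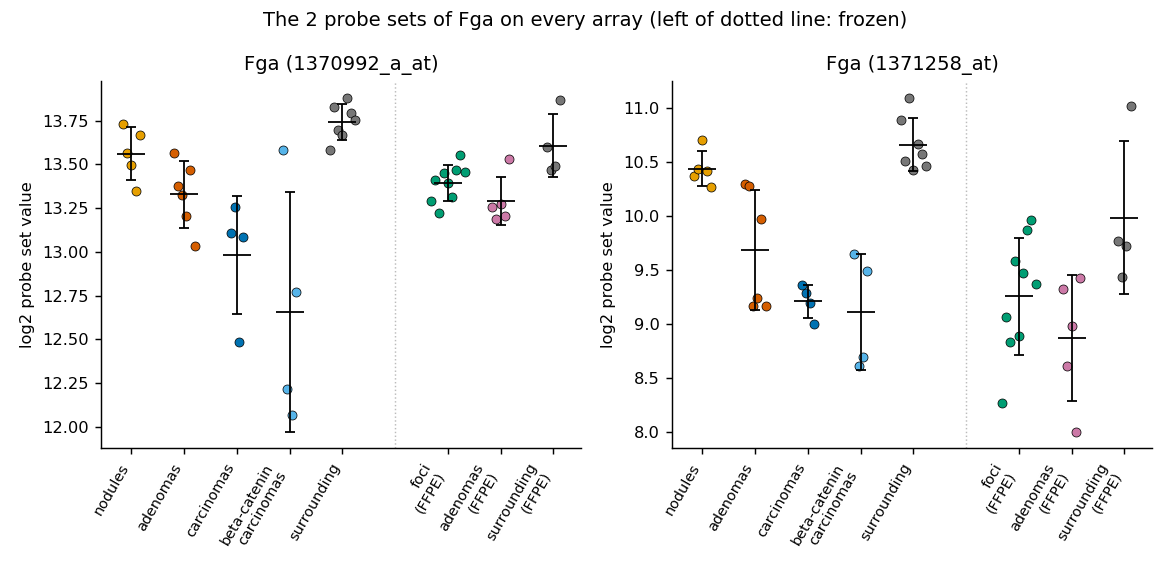
Log2 values of the probe sets of Fga on every array (vertical axes, with different ranges) by lesion group (horizontal axes), frozen tissue left of the dotted line. Bars are the mean and the standard deviation, and 1371258_at lies between 8.61 and 9.65 in both carcinoma groups and between 10.43 and 11.10 in frozen surrounding liver.

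On the probe sets of highest mean, the 3 chains kept close to each other from lesion to lesion. Over the 19 frozen lesions, each set against the surrounding liver of its control set, the mean of the chains ran from -1.67 to -0.0025 with a median of -0.38. Fga differed from Fgb by -0.21 to 0.27 within a lesion, Fga from Fgg by -0.32 to 0.19 and Fgb from Fgg by -0.53 to 0.13. The closeness depended on the probe set of Fga. Against the own surrounding array, 1371258_at had medians of -0.93 in frozen adenomas and -1.42 in carcinomas, where Fgb had -0.43 and -0.89. In beta-catenin carcinomas its median of -1.37 lay between those of Fgg (-1.11) and Fgb (-1.57). Fgb and Fgg lay below the own surrounding array in 19 of 19 frozen lesions and Fga in 17. In FFPE tissue Fga and Fgb lay below it in 14 of 14 lesions and Fgg in 12. The frozen lesions share 7 surrounding arrays and the FFPE lesions share 4. These counts, and those of the same kind below, are therefore not of independent pairs.

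Likeness to the chains was measured over the same 19 lesions as the root mean square distance from their mean, in log2 units. Fga entered it with 1370992_a_at alone. The nearest of the other genes were Tmem176a (0.199), Kng2l1 (0.203, a kininogen), Arg1 (0.209, the arginase of the urea cycle), RT1-S3 (0.223, a major histocompatibility class I gene) and C9 (0.239, the pore-forming complement component). For scale, the distance of a gene with no change at all would be 0.761. Of the acute phase members, Hp was nearest at 0.466 (rank 264 among 14217 genes), followed by Crp at 0.648, Orm1 at 0.887, Lbp at 1.0, A2m at 1.12 and Mug1 at 1.43. The lesions share animals and surrounding arrays, so this is a description of these samples.

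Haptoglobin fell in the beta-catenin carcinomas. Hp had 13.93, 13.66, 13.40 and 14.22 in beta-catenin carcinomas, against 14.36, 14.22 and 14.37 in surrounding liver. The lesions and the surrounding arrays met at 14.22 without crossing. Hp fell by 0.53 ± 0.15 (1.44-fold, limma, adjusted p = 0.0359). That call was lost in the absence of beta-catenin carcinoma replicate 2 (adjusted p = 0.0965) or 3 (0.0853) and of surrounding replicate 2 (0.0963), 5 (0.128) or 7 (0.159). Carcinomas had Hp at 13.97, 13.94, 13.73 and 14.13, also below their surrounding arrays, with a difference of -0.34 ± 0.15 that did not pass (adjusted p = 0.213). The differences in foci, FFPE adenomas, frozen adenomas and nodules were -0.23, -0.19, -0.21 and -0.17 (adjusted p = 0.101, 0.352, 0.359 and 0.807). Hp lay below the own surrounding array in 19 of 19 frozen and 14 of 14 FFPE lesions.

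Orm1 passed in no lesion group, and its standard deviation was larger than that of any chain in adenomas (0.72), carcinomas (1.14) and beta-catenin carcinomas (1.93). Beta-catenin carcinomas had 13.23, 8.93, 12.33 and 12.60, and carcinomas 12.05, 13.08, 10.38 and 12.33, against 13.37, 13.42 and 13.51 in surrounding liver. The groups did not overlap, and the lowest lesion of each group, in control set 21 N, stood at -4.49 and -3.04 relative to its surrounding array. With that spread the differences of -1.78 ± 0.66 and -1.25 ± 0.66 did not pass in limma (adjusted p = 0.0983 and 0.299). Without beta-catenin carcinoma replicate 1, whose label is in doubt, Orm1 passed at -2.44 ± 0.68 (adjusted p = 0.0283), as it did without carcinoma replicate 2 (-1.82, adjusted p = 0.0359), with animal as the block (-1.55, adjusted p = 0.0485) and with no block (-1.61, adjusted p = 0.0402). Without beta-catenin carcinoma replicate 2, the lowest, it stood at -0.78 ± 0.54 (adjusted p = 0.502). In carcinomas it ran from -1.85 to -0.54 as single arrays were left out, the smallest without surrounding replicate 5 (adjusted p = 0.844). Nodules had a median of 13.08 and a highest value of 13.12, below the 13.15, 13.19 and 13.53 of their surrounding liver, with a difference of -0.16. Adenomas ranged from 12.01 to 13.97 with a median of 13.14 and overlapped with 13.47 and 13.53 in surrounding liver, with a difference of -0.53 ± 0.64 (adjusted p = 0.619). FFPE foci and adenomas differed by -0.05 and -0.04, with 95% intervals of -0.35 to 0.25 and -0.37 to 0.30.

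A2m passed in none of the lesion comparisons, and its values spread widely within groups. Surrounding liver ranged from 5.91 to 8.22 in frozen tissue and stood at 7.43, 5.89, 6.64 and 10.13 in FFPE tissue. Adenoma replicate 1 had 10.58, far above the 5.56 to 6.74 of the other frozen adenomas and the 6.65 and 6.68 of their surrounding liver. Frozen adenomas differed by -0.06 ± 0.75, and without that array by -0.91 ± 0.40 (limma, adjusted p = 0.966 and 0.148). Nodules differed by -0.73 ± 0.72 (adjusted p = 0.839). Beta-catenin carcinomas had 7.98, 5.21, 4.92 and 4.07, and carcinomas 7.35, 5.22, 4.57 and 5.68, against 7.57, 5.91 and 6.17 in surrounding liver. In both carcinoma groups the array of control set 10 N_3 was the high one, as was its surrounding array. The differences were -0.82 ± 0.77 and -0.64 ± 0.77 (adjusted p = 0.605 and 0.728). Foci stood at -1.31 ± 0.45 and FFPE adenomas at -1.26 ± 0.50 (adjusted p = 0.127 and 0.269). As single arrays were left out, foci ran from -1.88 to -0.42, the smallest without FFPE surrounding replicate 4, and passed without FFPE adenoma replicate 5 (-1.47, adjusted p = 0.0267). FFPE adenomas ran from -1.90 to -0.52 and passed in none of these fits.

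**Figure D4:**
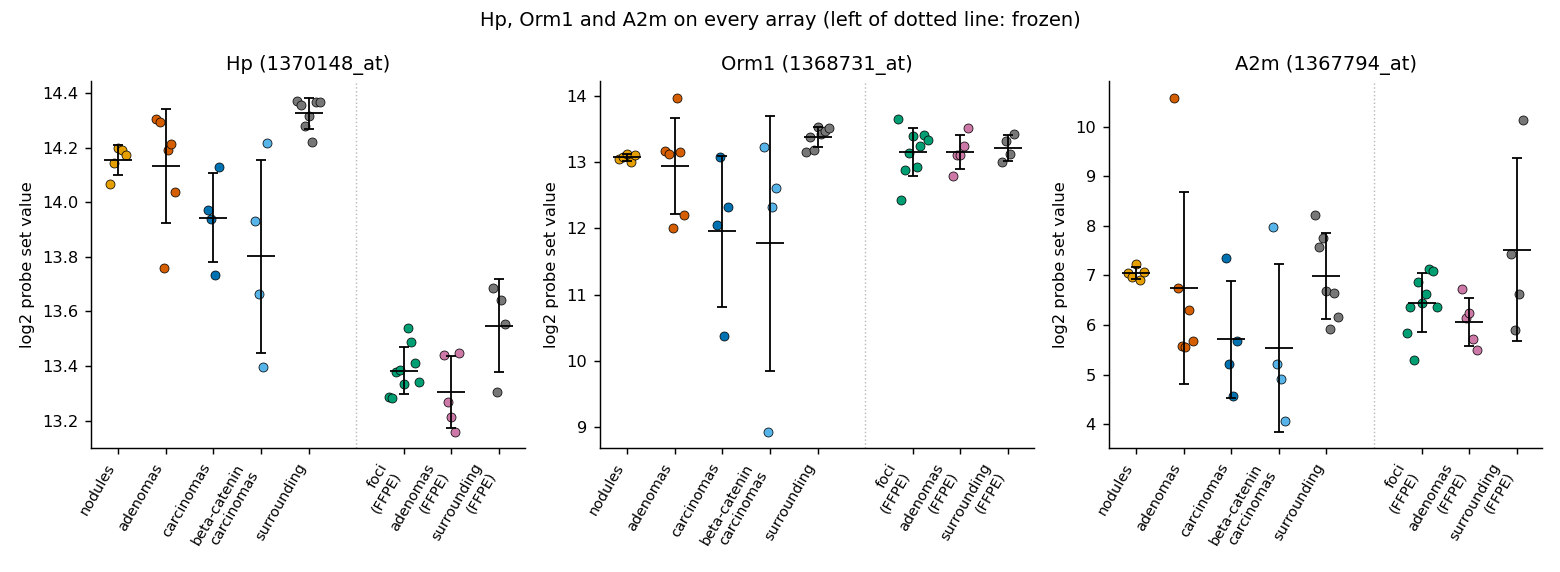
Log2 probe set values of Hp, Orm1 and A2m on every array (vertical axes, with different ranges) by lesion group (horizontal axes), frozen tissue left of the dotted line. Bars are the mean and the standard deviation, and single arrays stand apart, such as an adenoma at 10.58 for A2m and a beta-catenin carcinoma at 8.93 for Orm1.

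Crp fell in frozen adenomas. It ranged from 10.14 to 11.29 with a median of 10.41 in the 6 adenomas, against 11.59 and 11.76 in the surrounding liver of their sets. All 6 lay below both surrounding arrays, and Crp fell by 1.04 ± 0.25 (2.05-fold, limma, adjusted p = 0.0102). The call was lost without surrounding replicate 6, which leaves 1 of the control sets without surrounding liver (-0.96, adjusted p = 0.106). With Mug1, 2 of 9 genes fell in frozen adenomas, where 6.56% of all genes fell. Nodules had Crp at 12.02, 12.11, 11.95, 11.68 and 11.60 and differed by -0.03, with a 95% interval of -0.54 to 0.48. Beta-catenin carcinomas had 12.50, 12.94, 12.33 and 12.98, and carcinomas 12.78, 12.65, 12.11 and 12.61, against 13.27, 13.08 and 13.16 in surrounding liver. No carcinoma reached the surrounding level, but the differences of -0.48 ± 0.26 and -0.62 ± 0.26 did not pass (adjusted p = 0.279 and 0.165). FFPE foci and adenomas differed by -0.08 and -0.14 (adjusted p = 0.698 and 0.526).

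On its own probe set Mug1 fell in frozen adenomas, by the largest fitted difference among the calls of the 9 genes against surrounding liver. Adenomas ranged from 5.57 to 8.03 with a median of 6.52, against 8.67 and 8.96 in surrounding liver, with no overlap. Mug1 fell by 2.09 ± 0.68 (4.24-fold, limma, adjusted p = 0.0453), and the call was lost without any 1 of 15 of the 26 arrays (adjusted p up to 0.212, without surrounding replicate 6). The brighter probe set shared with Cpamd8 and Mug1l1 had a smaller median difference from the own surrounding array in these adenomas. It was -0.52, against -2.23 on Mug1's own probe set. Beta-catenin carcinomas had 10.60, 7.47, 7.97 and 10.17, and carcinomas 9.64, 10.56, 7.31 and 10.34, against 11.17, 11.08 and 11.36 in surrounding liver. Both groups lay below their surrounding arrays and held arrays on both sides of 9.0. Their differences of -2.21 ± 0.70 and -1.55 ± 0.70 did not pass (adjusted p = 0.0508 and 0.21), while the first passed without any 1 of 6 arrays, among them beta-catenin carcinoma replicate 1 (-2.86 ± 0.74, adjusted p = 0.0183). Foci stood at -0.51 ± 0.15 (adjusted p = 0.0545), FFPE adenomas at -0.21 ± 0.16 (adjusted p = 0.711) and nodules at -0.75 ± 0.65 (adjusted p = 0.808). Mug1 was below the own surrounding array in 19 of 19 frozen lesions and in 13 of 14 FFPE lesions.

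Lbp was the 1 gene of the 9 with differences above 0 in both carcinoma groups. Beta-catenin carcinomas had 10.93, 10.79, 10.18 and 11.24, and carcinomas 10.68, 10.92, 10.46 and 11.31, against 10.82, 10.46 and 10.53 in surrounding liver. The groups overlapped, and the matched differences were 0.17 ± 0.35 and 0.27 ± 0.35 (limma, adjusted p = 0.839 and 0.754). Against surrounding liver of all control sets together, with no term for the set, Lbp would stand at 1.57 and 1.63 and pass (adjusted p = 0.0244 and 0.0204). FFPE adenomas stood at 0.41 ± 0.17 with 5 of 5 above their own surrounding array and did not pass (adjusted p = 0.3). Adenoma replicate 1, the array with high A2m, had Lbp at 9.86, against 8.14 to 8.26 in the other frozen adenomas and 8.18 and 8.35 in surrounding liver. Frozen adenomas stood at 0.39 ± 0.34, and at 0.05 without that array. Nodules and foci stood at -0.25 ± 0.33 and -0.04 ± 0.15.

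**Figure D5:**
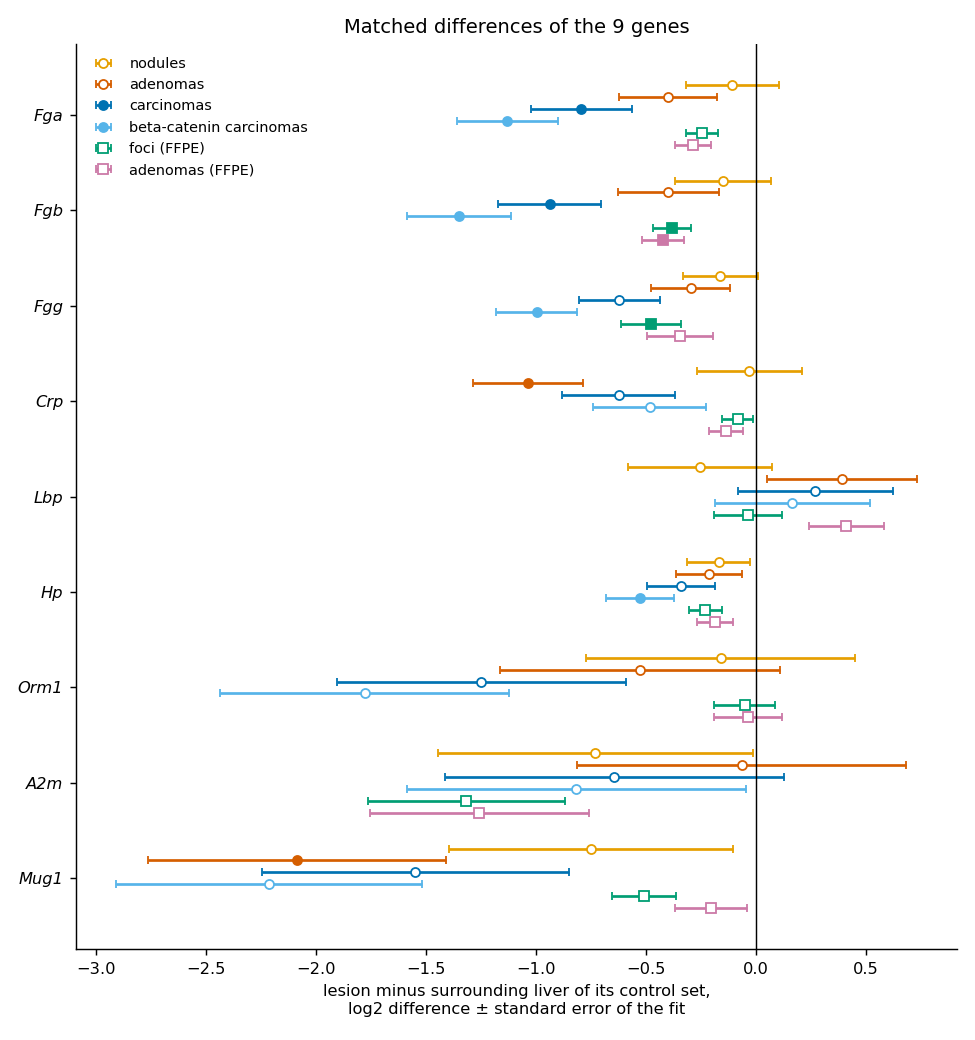
Differences of lesions from surrounding liver in the fit with the control set as a term (horizontal axis, log2, with the standard error of the fit as bars) for the 9 genes (vertical axis) and 6 lesion groups. Filled symbols passed at an adjusted p under 0.05, and the fibrinogen chains reach -1.35 in beta-catenin carcinomas while Lbp lies on both sides of 0.

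In each lesion group against surrounding liver, 8 or 9 of the 9 genes had a fitted difference below 0, and none passed as higher. The median of the 9 was -1.0 in beta-catenin carcinomas, -0.64 in carcinomas, -0.40 in frozen adenomas, -0.16 in nodules, -0.24 in foci and -0.21 in FFPE adenomas. Over all genes tested the same medians were 0.03, 0.01, -0.0045, -0.01, -0.02 and -0.02. The share of all genes below 0 is not given here. Most genes of 2 like lists lay below 0 as well. Of 8 hepatocyte marker genes, 0 to 2 lay above 0 in each lesion group. Of 8 measured genes known to go down in the acute phase, 1 or 2 did. These comparisons share surrounding arrays within a fixation and are not independent of each other.

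Between lesion groups none of the 9 genes passed. Frozen adenomas against nodules gave 0 of 9 genes by limma, 1 of them (Crp, -1.01 ± 0.29) at an unadjusted p under 0.05, and 0% of all genes passed (1727 unadjusted). In this comparison Mug1 stood at -1.34 and Lbp at 0.65, A2m at 0.67 and Orm1 at -0.37, and Fga (-0.29), Fgb (-0.25), Fgg (-0.14) and Hp (-0.05) lay nearer 0. Carcinomas against frozen adenomas also gave 0 of 9, 0 of them unadjusted, with 0% of all genes (711 unadjusted), and the chains stood at -0.54 ± 0.33 (Fgb), -0.39 ± 0.32 (Fga) and -0.32 ± 0.26 (Fgg). There Hp stood at -0.13, Orm1 at -0.72, A2m at -0.58, Crp at 0.41 and Mug1 at 0.54. Adenomas and carcinomas share no control set, and without the set as a term Lbp stood at 2.35 ± 0.49 (adjusted p = 0.00289) in place of -0.12. Beta-catenin carcinomas against carcinomas gave 0 of 9, with Fgg alone at an unadjusted p under 0.05, and 0% of all genes (812 unadjusted). There Fgb, Fgg and Fga stood at -0.41, -0.38 and -0.34, with 95% intervals of -0.88 to 0.06, -0.75 to -0.0021 and -0.80 to 0.12. Mug1 stood at -0.66, Orm1 at -0.53, Hp at -0.19, A2m at -0.17, Lbp at -0.10 and Crp at 0.14. FFPE adenomas against foci gave 0 of 9, with Lbp alone unadjusted (0.45 ± 0.16), and 0% of all genes (633 unadjusted). Mug1 stood at 0.30, Fgg at 0.13, and A2m, Orm1, Hp, Fga, Fgb and Crp at -0.05 to 0.06.

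Of 13 other measured genes raised in the acute phase, 9 fell in beta-catenin carcinomas (5.07% of all genes did), with a median over the list of -0.83. They included Fgl1, a fibrinogen-related hepatokine (-2.87 ± 0.76), Hamp, the iron hormone hepcidin (-2.17 ± 0.62), Itih4 (-1.64 ± 0.47) and Steap4 (-1.40 ± 0.38). In carcinomas 4 of 13 fell (3.5% of all genes), namely Fgl1 (-2.66 ± 0.76), the hyaluronan-binding Itih3 (-0.82 ± 0.17), Apcs, the serum amyloid P component (-0.77 ± 0.18), and C4bpa, a complement inhibitor (-0.72 ± 0.15). In frozen adenomas Apcs (-0.72 ± 0.18) and Itih3 (-0.66 ± 0.16) fell, 2 of 13 against 6.56% of all genes. In foci and in FFPE adenomas 4 of 13 fell (1.36% and 0.872% of all genes), Fgl1 (-0.93 and -0.96), Itih3 (-0.71 and -0.74), C4bpa (-0.61 and -0.55) and Itih4 (-0.38 and -0.51). In nodules 0 of 13 passed and the median of the list was -0.28. No gene of this list passed as higher in a lesion group against surrounding liver. Hpx (0.71 ± 0.08) and Serpina3n (0.70 ± 0.14) were higher in surrounding liver of the carcinoma control sets than of the other sets.

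Of 8 measured genes known to go down in the acute phase, 2 fell in beta-catenin carcinomas against 5.07% of all genes (Serpina6, the corticosteroid carrier, -1.20 ± 0.25, and Fetub -0.59 ± 0.11), 3 in carcinomas against 3.5% (Serpina7, the thyroxine carrier, -1.49 ± 0.36, Serpina6 -1.42 ± 0.25 and Fetub -0.49 ± 0.11) and 5 in frozen adenomas against 6.56%. Those 5 included Serpina6 (-1.45 ± 0.25), Serpina7 (-1.40 ± 0.35), Ttr (-0.42 ± 0.13) and Fetub (-0.40 ± 0.11). In foci Serpina6 fell (-0.71 ± 0.16), 1 of 8 against 1.36% of all genes, and Apoa1, the main protein of high-density lipoprotein, rose in foci (0.47 ± 0.11) and in FFPE adenomas (0.54 ± 0.12). Alb, serum albumin, stood at -0.07 ± 0.07 in beta-catenin carcinomas and at -0.02 ± 0.07 in both carcinomas and frozen adenomas.

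Among 24 measured genes of interleukin 6 and interleukin 1 signalling, several receptors and transcription factors fell, and Il6 itself did not pass. Il6r, the interleukin 6 receptor, fell by 1.40 ± 0.27 in beta-catenin carcinomas, 1.17 ± 0.27 in carcinomas and 0.94 ± 0.26 in frozen adenomas. Cebpa, a liver transcription factor, fell by 1.20 ± 0.17, 1.09 ± 0.17 and 0.96 ± 0.17 in the same groups. The list held 3 falls in beta-catenin carcinomas (5.07% of all genes fell), 5 in carcinomas (3.5%) and 4 in frozen adenomas (6.56%), and none of its genes passed as higher in a lesion group. The others were Il1rn (-1.11 and -1.08) in both carcinoma groups, Il1r1 (-1.07) and Nr3c1, the glucocorticoid receptor (-0.54), in carcinomas, and Nr3c1 (-0.86) and Cebpb (-0.62) in frozen adenomas. In foci Il6st, the shared receptor subunit, fell by 0.59 ± 0.15. Il6 stood at -0.04 ± 0.19 in beta-catenin carcinomas, -0.09 ± 0.19 in carcinomas and 0.02 ± 0.19 in frozen adenomas. Socs3, an interleukin 6 target, stood at -0.12 ± 0.12, -0.22 ± 0.12 and -0.06 ± 0.12 there, and it was higher by 0.65 ± 0.14 in surrounding liver of the carcinoma control sets, as was Cebpa by 1.29 ± 0.10. These were 2 of 24 genes higher between the kinds of set, where 3.07% of all genes were. In the same comparison 1 gene of the list, not named here, was lower. The median of the 24 was -0.13, with 7 above 0.

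Of 7 measured genes of fibrin formation and removal, Cpb2, which slows clot dissolution, fell in beta-catenin carcinomas (-0.83 ± 0.18) and carcinomas (-0.68 ± 0.18), and Serpinf2, the plasmin inhibitor, in beta-catenin carcinomas (-0.72 ± 0.22). In frozen adenomas F2, prothrombin (-0.31 ± 0.10), and Plg, plasminogen (-0.42 ± 0.12), fell, and Plat, the tissue plasminogen activator, rose by 1.45 ± 0.40. Of 6 genes that act beside Lbp in lipopolysaccharide recognition, Myd88 fell in beta-catenin carcinomas (-0.52 ± 0.11), carcinomas (-0.71 ± 0.11) and frozen adenomas (-0.56 ± 0.11). Ly96, the partner of the lipopolysaccharide receptor, rose in carcinomas (0.65 ± 0.19) and frozen adenomas (0.64 ± 0.18), where Ticam1 also rose (0.72 ± 0.17). Of all genes, 5.07% fell in beta-catenin carcinomas, 3.5% in carcinomas and 6.56% in frozen adenomas. The share of all genes that rose is not given here.

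Marker genes of cell types moved with some of these results. Beside them, 5.07% of all genes fell in beta-catenin carcinomas, 3.5% in carcinomas, 6.56% in frozen adenomas and 1.36% in foci. The share of all genes that rose is not given here. Hepatocyte markers, 8 of 8 measured, fell in 4 in beta-catenin carcinomas (Tat -1.08, Cps1 -0.89, Apoc3 -0.50 and Apoh -0.34), and Tat fell in carcinomas (-1.40), frozen adenomas (-1.62) and foci (-0.82). The sum of the 8 on the linear scale was 94568 to 98464 in beta-catenin carcinomas and 101241 to 114816 in carcinomas. It was 111532 to 120367 over all 7 frozen surrounding arrays, which were not matched by control set. Macrophage markers fell in 6 of 7 measured in both carcinoma groups, among them Cd163 (-1.52 and -1.25), Cd5l (-1.45 and -1.59) and Clec4f (-1.43 and -1.17). In frozen adenomas, where Crp and Mug1 fell, 2 of 7 fell, Cd163 (-0.93) and Cd5l (-1.09). The sum of the 7 macrophage markers was 2200 to 3798 in beta-catenin carcinomas, 2456 to 4938 in carcinomas and 2435 to 5970 in frozen adenomas. It was 4865 to 7907 over the same 7 surrounding arrays, again not matched by control set. Kdr of 5 endothelial markers (-0.71) and Lrat of 6 stellate cell and fibroblast markers (-2.35) fell in beta-catenin carcinomas. Of the 5 endothelial markers 0 lay above 0 there, while 3 of the 6 stellate cell and fibroblast markers did (median of the 6, 0.03). Clec4f and C1qb fell in foci. Col1a1 and Col3a1, 2 of 6 stellate cell and fibroblast markers, rose in foci (1.21 and 1.04) and FFPE adenomas (2.18 and 1.70). Of the 6, only 3 lay above 0 in foci and 4 in FFPE adenomas. Of 4 measured cholangiocyte markers, Krt19 rose in frozen adenomas (4.45) and FFPE adenomas (2.53), and Epcam rose by 1.28 and 0.93 there. The part of these cell types in the differences of the 9 genes was not tested.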

How the data were processed

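RNA of 47 tissue samples was hybridised to expression arrays of 31042 probe sets, 1 array a sample. The values are log2 probe set summaries as the authors deposited them, and the background correction, summary and normalization behind them are not given in the sources used here. Frozen tissue was extracted with TRIzol and a column kit and FFPE tissue after laser microdissection, per the labels' protocols. Precision is limited by how many arrays each group has.

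Probe sets were named from the platform annotation: 20826 had 1 gene symbol, 436 several and 9780 none. Where a gene had several probe sets, the one of highest mean in the fixation stood for it. The 26 frozen and the 18 FFPE arrays were fitted apart with limma 3.58.1 (R 4.3.3), with lesion group and control set as terms, an intensity trend in the moderated variance and Benjamini-Hochberg adjustment over 14217 genes. The 7 frozen surrounding arrays were also fitted by kind of control set. A gene was called at an adjusted p under 0.05. Errors of differences are standard errors of the fit. Values and figures were made with Python 3.11.15, pandas 2.3.3, numpy 2.4.6 and matplotlib 3.10.9. The scripts were tested on simulated data.

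The pairing of lesion and surrounding liver comes from the labels, which give the same animal. Deviations from the group means of arrays of 1 control set had a median correlation of 0.13 in frozen tissue (27 pairs) and 0.113 in FFPE tissue (23 pairs), against -0.0192 (240 pairs) and -0.0325 (78 pairs) between sets. Animal 21 has other numbers in a further label field. No arrays were identical, and the highest correlation between any 2 was 0.995. Replicates that share an animal are not independent, so p-values measure the spread between these samples.

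The 9 genes, the gene lists and the comparisons were chosen with earlier results of these data known. Every one of the 9 genes is given in every comparison. Of each list, up to 4 passing genes with the largest change are named per comparison, or its defining genes. The exception is the 1 interleukin signalling gene that was lower in surrounding liver of the carcinoma control sets. The 5 genes closest to the mean of the fibrinogen chains over the 19 frozen lesions are named. Genes named beyond this rule (Alb, Il6, Socs3, Nr3c1 in carcinomas, and Lrat outside beta-catenin carcinomas) were chosen after their values were seen. The 3 arrays labelled C43 entered no comparison. Alternatives tried were no control set term, animal as the block, quantile normalization, no intensity trend, a minimum mean of 6, every probe set on its own, leaving out each array, leaving out arrays of doubtful label and, chosen after seeing the data, a fit of 1 kind of control set.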

Additional observations from a re-analysis of the deposited data

Results flagged for a closer look

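Of 72 groups of 4 to 9 arrays tested for a single far value, 5 held one, where chance gives about 1 in 20. Adenoma replicate 1 of the frozen tissue stood apart in both A2m (10.58, next value 6.74) and Lbp (9.86, next value 8.26). Without it, frozen adenomas stood at -0.91 ± 0.40 for A2m in place of -0.06, and at 0.05 ± 0.23 for Lbp in place of 0.39. Carcinoma replicate 3 was low in Fgb (12.27, next value 12.92) and in Fgg (12.75, next value 13.28). Without it, carcinomas stood at -0.84 for Fgb (limma, adjusted p = 0.0653) and at -0.53 for Fgg (adjusted p = 0.135). FFPE adenoma replicate 5 was high in Fga (13.53, next value 13.28).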

How the results depend on the processing

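Of the differences of single genes, 2773 values under an alternative stayed on their side of the threshold, 76 lost the call, 39 gained it and 1 turned. Of the 2773, 62 had the other sign, all of them uncalled on both sides. That one was Lbp in carcinomas against frozen adenomas, at 2.35 without the control set as replicate block, against -0.12 with it. The numbers of the 9 genes called moved by over 1.5 times as follows, and the cause was not tested. Without the replicate block, 0 were called in foci (2 with it), 0 in FFPE adenomas (1), 5 in carcinomas (2), 1 in adenomas against nodules (0) and 3 in carcinomas against adenomas (0), where animal as the block gave 1. Without the intensity trend, 0 were called in foci and 0 in FFPE adenomas. After quantile normalization, 2 were called in FFPE adenomas and 1 in carcinomas. With genes of a mean of at least 6 alone, 2 were called in FFPE adenomas. Without the FFPE adenoma of doubtful label, 1 was called in foci. In the fit of carcinoma control sets alone, which has fewer arrays, 0 were called in carcinomas and 1 in beta-catenin carcinomas (4). Within 1.5 times, beta-catenin carcinomas had 6 without the block (Lbp and Orm1 added), 6 without the array of doubtful label (Orm1 and Mug1), 5 with animal as the block (Orm1) and 5 at a mean of at least 6 (Mug1). Carcinomas had 3 with animal as the block, at a mean of at least 6 or without the doubtful array (Fgg each time). Foci had 3 after quantile normalization or at a mean of at least 6 (Mug1). Frozen adenomas had 3 in the fit of 1 kind of control set (Fgb) and 3 with every probe set on its own, where a gene counted if any of its sets passed. Between the kinds of control set, 4 differed with animal as the block (A2m added).

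Leaving out 1 array at a time gave 0 to 3 calls in foci, 0 to 2 in FFPE adenomas, 0 to 2 in frozen adenomas, 0 to 3 in carcinomas and 2 to 6 in beta-catenin carcinomas. It gave 0 in nodules and between lesion groups and 3 between the kinds of control set. The fall of Fgb and Fgg in beta-catenin carcinomas held without any 1 array (adjusted p up to 0.0296 and 0.032). Mug1, Lbp and Crp also stayed apart between the kinds of control set without any 1 array, at 2.53 to 2.76, 2.30 to 2.51 and 1.28 to 1.44.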

Other observations

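The shared probe set of Mug1, Cpamd8 and Mug1l1 (1370027_a_at) did not split the surrounding liver by control set as Mug1's own probe set did. It lay between 13.81 and 14.10 in the control sets of the carcinomas and between 13.82 and 14.21 in the sets of the nodules. In lesions it lay below the own surrounding array in 19 of 19 frozen and 14 of 14 FFPE lesions, with medians of -1.42 in beta-catenin carcinomas, -0.70 in carcinomas, -0.52 in frozen adenomas, -0.05 in nodules, -0.54 in foci and -0.33 in FFPE adenomas.

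Lrat, which makes the storage form of vitamin A and is the neighbour of Fgg on chromosome 2, fell by 2.35 ± 0.54 in beta-catenin carcinomas (limma, adjusted p = 0.00969). It stood at -1.51 ± 0.54 in carcinomas (adjusted p = 0.103), -0.97 ± 0.52 in frozen adenomas and -0.32 ± 0.50 in nodules.

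Of the 3 arrays labelled C43, which the labels call both normal and surrounding liver under phenobarbital, the 2 frozen ones had Fgb at 13.85 and 13.84, Crp at 12.05 and 11.93, Lbp at 7.71 and 7.46 and Mug1 at 9.20 and 9.31. The FFPE one had Fgb at 13.36, Crp at 14.14, Lbp at 10.80 and Mug1 at 13.12.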
